A study of Mus musculus with 20 samples.

Results

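Folic acid (FA) was compared with placebo in the left ventricle of mice that had received doxorubicin (DOXO), an anthracycline given against cancer that damages the heart. The comparison uses 12 of the 20 arrays in the series, 6 from FA-DOXO mice and 6 from DOXO mice, chosen by their sample labels alone, and it is described across all 34760 transcript clusters of the array, of which 21640 carry 1 gene symbol. All animals were male C57BL/6 mice with an age of 2 months in the labels. DOXO and FA-DOXO mice shared a single intraperitoneal injection of DOXO at 20 mg/kg, while the 4 sham and 4 FA-sham mice received saline. FA mice ate 10 mg of FA per day in their food and placebo mice ate that food plain. Feeding began 7 days ahead of the injection, and the experiment ended at 10 days. Each array holds the RNA of 1 mouse that had survived to that day, so mice that died earlier are not represented.

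Folate carries single carbon groups between molecules. The cell uses them to build purines and thymidylate for DNA, and to turn homocysteine back into methionine, the source of methyl groups. At high doses FA has been studied in the heart because it can keep endothelial nitric oxide (NO) synthase paired with its cofactor tetrahydrobiopterin, so that the enzyme makes NO and not superoxide. DOXO traps DNA topoisomerase II on cut DNA, cycles between redox states and releases iron, and heart muscle with its dense mitochondria is its best known site of harm outside the tumour.

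Values are log2 signals, so that a difference of 1 is a doubling, and each difference is FA-DOXO minus DOXO with its standard error (SE). Each cluster was fitted with limma over all 20 arrays in 2 ways, with group means alone and with the spread of each array as a covariate. The spread is the SD of all log2 signals on an array. It ran from 0.907 to 1.50 on the DOXO arrays, with a mean of 1.13 ± 0.265 (SD, n = 6), and from 0.863 to 1.34 on the FA-DOXO arrays, with a mean of 1.04 ± 0.185 (SD, n = 6). The groups overlapped, and the difference of -0.0904 had p = 0.504 in a two-sided exact permutation test over 924 splits, where 0.00216 is the smallest p the design allows. In each of these groups 2 arrays had an SD above 1.1 (wide) and 4 had a smaller one (narrow). The 2 DOXO arrays with the largest spread, replicates 1 and 5, lay above both wide FA-DOXO arrays. Of all clusters, 81.7% followed the array SD within groups at a limma adjusted p under 0.05, 10355 upwards and 18044 downwards.

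**Figure D1:**
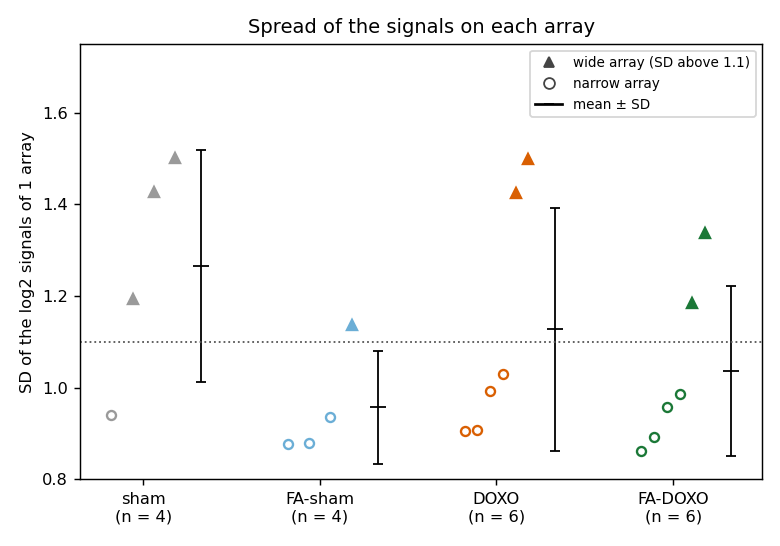
SD of the log2 signals on each array (vertical axis) in the 4 groups, 1 point per mouse, with the group mean ± SD in black. Triangles are wide arrays above the dotted line at 1.1 and circles are narrow arrays; the DOXO arrays reach 1.50 and the FA-DOXO arrays 1.34.

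Most of the transcriptome of DOXO-treated hearts was not told apart by FA on these arrays. Without a covariate, 55 clusters (0.158%) passed an unadjusted limma p of 0.01, 46 higher with FA (0.132%) and 9 lower (0.0259%). The study used the same unadjusted threshold for its arrays but does not name its test, and it reported more clusters for this comparison. With the array SD as covariate, 386 clusters passed (1.11%), 291 higher (0.837%) and 95 lower (0.273%). A threshold of 0.01 lets 1% of clusters pass when none differs, so the first share lies under that value and the second close to it. No cluster passed a limma adjusted p of 0.05 in either fit, with smallest values of 1.00 and 0.703, while 455 and 2038 clusters had an unadjusted p under 0.05. "Called" below therefore means the unadjusted threshold only. The split between higher and lower calls depended on scaling. After quantile normalization it was 42 to 45 without a covariate and 228 to 255 with it, after median centring 40 to 31 and 209 to 182, and after scaling all arrays to 1 SD 49 to 45 and 322 to 221. Adding the covariate brought the median SE over genes from 0.171 to 0.0872. Nearly all calls of the first fit were kept, 53 of 55, all with the same sign.

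In both fits 13 clusters with 1 gene symbol were called. All 13 were higher with FA, and in 4 of them, Trps1, Defa24, Ccdc88a and Vmn2r94, the 2 groups of mice did not overlap. Over all clusters, 47 (0.135%) had groups without overlap, 41 higher and 6 lower with FA.

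Trps1, a GATA-type zinc finger repressor of skeletal development, had the smallest p of these 13 without a covariate. Its lowest, median and highest signals were 5.98, 6.49 and 6.56 in DOXO mice and 6.68, 6.79 and 6.88 in FA-DOXO mice. The difference was 0.38 ± 0.10 without a covariate and 0.36 ± 0.09 with it, and it was 0.55 within the wide and 0.29 within the narrow arrays. Its call held in both fits whichever of the 12 mice was left out. A second Trps1 cluster was not called, at 0.14 ± 0.12 without and 0.18 ± 0.10 with the covariate.

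Defa24, an alpha-defensin of the gut that belongs to a family of near-identical genes, behaved alike, with 5.29, 5.62 and 5.72 in DOXO mice against 5.75, 5.88 and 5.97 in FA-DOXO mice. Its difference was 0.33 ± 0.10 and 0.29 ± 0.06 in the 2 fits, again called with each mouse left out in turn. The signal lies below the median of every array and probes of this family cannot be assigned to 1 copy with certainty.

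Ccdc88a encodes girdin, an actin-binding target of Akt. DOXO mice ran from 6.30 to 6.39 with a median of 6.33, and FA-DOXO mice from 6.41 to 6.56 with a median of 6.55. The groups were apart by a narrow margin, since FA-DOXO replicate 6 lay at 6.41 and the next FA-DOXO mouse at 6.54. Apart from replicate 5 of each group, every mouse had a Ccdc88a signal below the median of its own array. The difference between the groups was 0.20 ± 0.05 with the covariate, called in 12 of 12 fits that left out a mouse. It was 0.19 ± 0.07 without the covariate, called in 2 of 12.

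Naa30 is the catalytic subunit of an enzyme that acetylates the first residue of proteins, Carnmt1 methylates carnosine, and Rbm12b2 is an RNA-binding protein. Naa30 ran from 6.83 to 7.33 in DOXO mice and from 7.21 to 7.60 in FA-DOXO mice, and 4 FA-DOXO mice exceeded the whole DOXO group. Its difference was 0.31 ± 0.10 without and 0.27 ± 0.08 with the covariate. Rbm12b2 ran from 6.34 to 6.80 against 6.72 to 7.20, with differences of 0.36 ± 0.12 and 0.39 ± 0.11. Carnmt1 overlapped more, since 1 DOXO mouse reached 6.02 and only 1 FA-DOXO mouse, at 6.28, lay above it, and only 1 of its 3 clusters was called.

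The histone gene H2ac4, the predicted gene Gm1553, the vomeronasal receptor Vmn2r94 and the olfactory receptors Olfr308, Olfr781 and Olfr1051 made up the rest, apart from a microRNA. Their differences without a covariate ran from 0.35 for Olfr781 to 0.57 for Olfr308. H2ac4 belongs to a cluster of histone genes with near-identical sequence, so its value is uncertain. The signals of H2ac4, Gm1553 and Carnmt1 lay below the array median in every mouse of the comparison. Olfactory and vomeronasal receptors are not known as genes of heart muscle. Over their 1210 clusters the median difference was 0.22 without and 0.11 with the covariate, 4 were called higher and 0 lower in the first fit (0.331%), and 14 higher and 1 lower in the second (1.24%), near the share of all clusters there. Their median signal was 6.31, below the median of each of the 12 arrays compared.

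**Figure D2:**
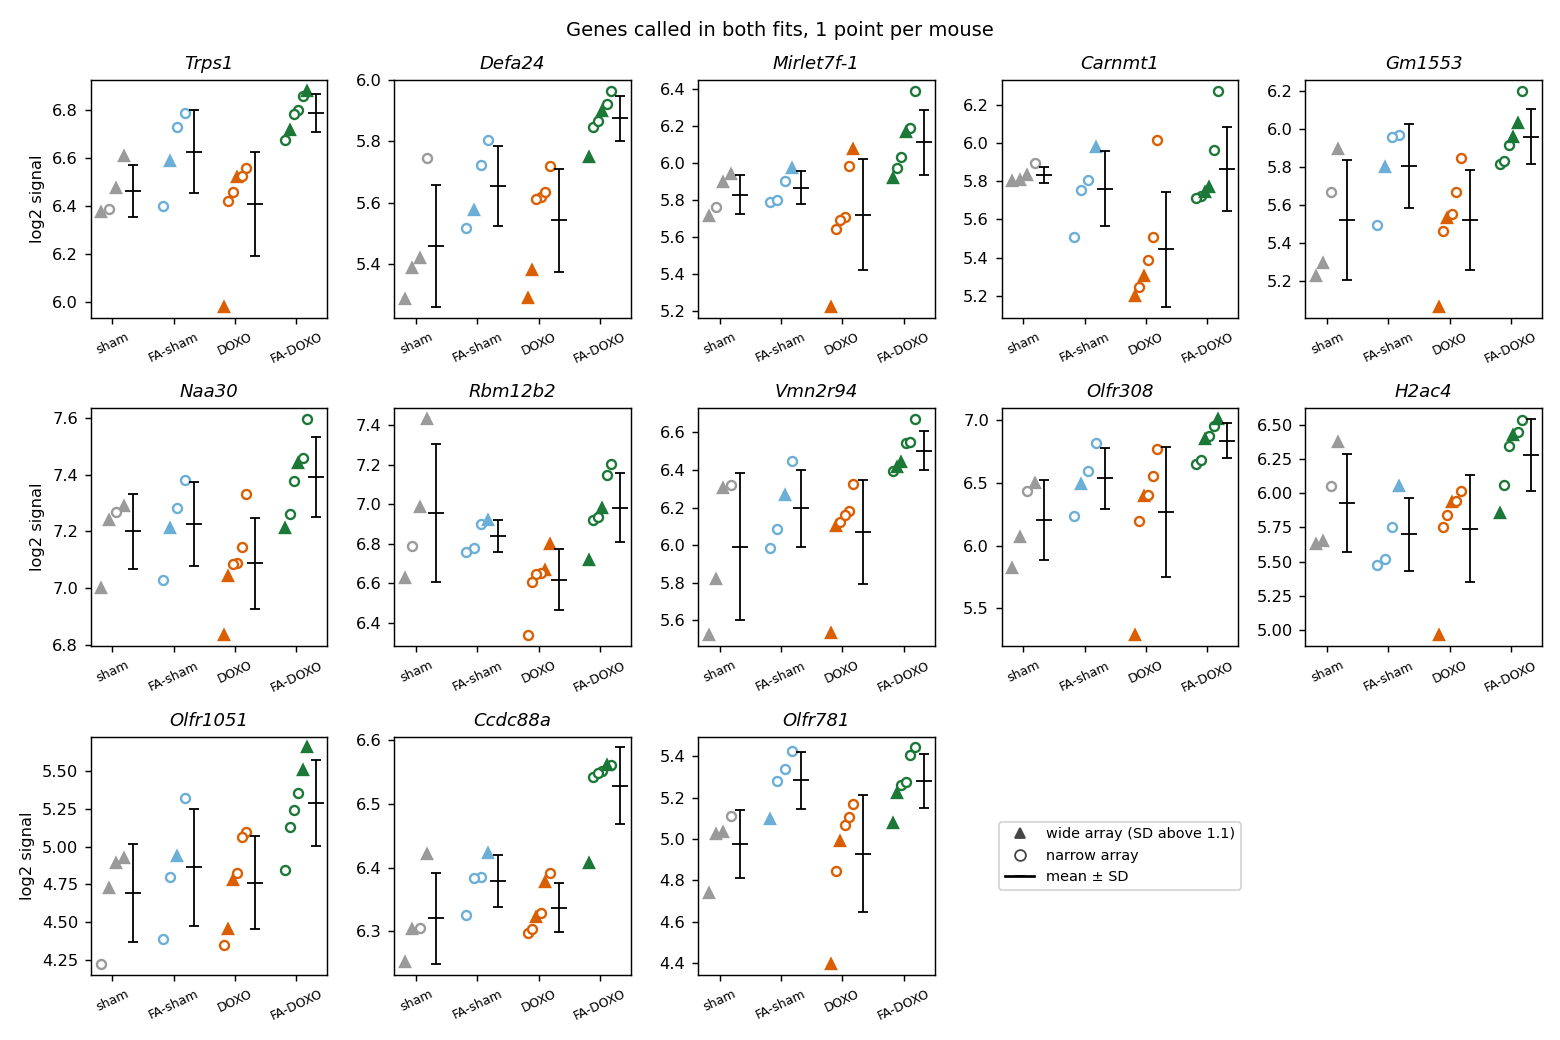
Log2 signals of the 13 genes called in both fits, in order of their p without a covariate, by group, 1 point per mouse, with mean ± SD in black. Triangles are wide and circles narrow arrays; in Trps1, Defa24, Ccdc88a and Vmn2r94 the DOXO and FA-DOXO points do not overlap.

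Mirlet7f-1 is the precursor of let-7f, a member of the let-7 family of microRNAs, which silence messages of growth and cell cycle genes in adult tissue. Mir668, a microRNA of the imprinted Dlk1-Dio3 cluster, was called in the other direction with the covariate. It was picked after its values were seen. Their mature sequences are shown because a microRNA acts through its seed, with the seed, bases 2 to 8, in capitals. RefSeq (GRCm38.p6) places those of let-7f-1 at chr13:48537889-48537910 and chr13:48537833-48537854 on the minus strand, and those of miR-668 at chr12:109734733-109734756 and chr12:109734774-109734797 on the plus strand.
mmu-let-7f-5p: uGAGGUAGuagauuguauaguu
mmu-let-7f-1-3p: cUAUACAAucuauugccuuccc
mmu-miR-668-5p: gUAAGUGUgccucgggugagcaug
mmu-miR-668-3p: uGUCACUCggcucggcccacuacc
The 4 seeds differ from each other, so the 2 genes share none. The array reports the precursor's locus and cannot tell the mature strands apart or from other RNA of that locus.

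Mirlet7f-1 ran from 5.22 through a median of 5.70 to 6.08 in DOXO mice and from 5.92 through 6.10 to 6.39 in FA-DOXO mice. Each of these signals lay below the median of its own array. The groups overlapped, with 3 FA-DOXO mice above the highest DOXO mouse. Its difference of 0.39 ± 0.12 without and 0.38 ± 0.12 with the covariate was nearly the same within the wide arrays, at 0.39, as within the narrow ones, also at 0.39. Mir668 ran from 6.51 to 7.40 in DOXO mice and from 6.48 to 7.24 in FA-DOXO mice, and its difference was -0.05 ± 0.18 without the covariate and -0.18 ± 0.05 with it. On the wide arrays it was at 6.68 and 6.51 in DOXO and at 6.48 and 6.71 in FA-DOXO mice. On the narrow ones it ran from 7.15 to 7.40 and from 7.05 to 7.24.

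With the array SD as covariate, 192 clusters with 1 gene symbol were called higher and 45 lower. Further settings were chosen after the data had been seen. The first added the square of the SD to the covariate. The others kept the SD alone as covariate and used only the narrow arrays, or left out both wide DOXO arrays. All 237 calls had the same sign in each, and 213, 35 and 61 were still called in that order. These settings reuse arrays on which the calls were picked, so the shared sign is no independent support. Within the wide arrays 170 of 237 had the same sign without a covariate, and within the narrow arrays 232 did. Leaving out FA-DOXO replicate 5 or 6, the wide arrays of that group, kept 81 or 97 of the calls. A value called only with the covariate is thus an adjustment along 1 fitted slope, and arrays of like spread did not always show it. Both wide DOXO arrays had a larger SD than both wide FA-DOXO arrays, and in several genes named below the difference within the wide arrays had the opposite sign.

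Inmt, an indolethylamine N-methyltransferase that uses the methyl donor of the methionine cycle, had the largest difference among the called clusters with 1 symbol, 0.76 ± 0.24, or 1.69-fold. DOXO mice ran from 6.36 to 7.13 and FA-DOXO mice from 6.65 to 8.37, with 3 FA-DOXO mice above the DOXO range. The difference rested on the wide arrays, where the means were 6.73 and 8.31, against 6.70 and 6.85 on the narrow ones. It was 0.42 without both wide DOXO arrays, with an unadjusted limma p of 0.0387. Abca8a, a lipid transporter, was higher by 0.58 ± 0.19, and by 0.30 without those arrays, where it was not called.

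Ipo7 and Xpo1 carry cargo through nuclear pores, the former inwards and the latter outwards. Ipo7 ran from 5.63 to 8.67 in DOXO mice and from 6.18 to 8.69 in FA-DOXO mice, so that the raw groups overlapped, and its difference was 0.09 ± 0.63 without and 0.56 ± 0.13 with the covariate. It was called with any of the 12 mice left out and also without both wide DOXO arrays, at 0.47, but it was -0.20 within the wide and 0.23 within the narrow arrays. Xpo1 was higher by 0.47 ± 0.14 and Cdc5l, a core splicing factor, by 0.52 ± 0.15. The called Cdc5l cluster stood out in the raw values too, with 7.91 to 8.61 in DOXO mice, 8.50 to 8.83 in FA-DOXO mice and 5 FA-DOXO mice above the DOXO range, while the other 3 Cdc5l clusters were not called, at 0.10 to 0.22. Thoc1 and Thoc2 of the complex that couples transcription to mRNA export differed by 0.24 ± 0.07 and 0.30 ± 0.08, and Ddx6, an RNA helicase of P-bodies, by 0.44 ± 0.13 with the covariate. Without it Thoc2 and Ddx6 were below 0, at -0.01 ± 0.42 and -0.16 ± 0.78, and within the wide arrays they were at -0.17 and -0.49, against 0.06 and 0.01 within the narrow ones.

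Rock1, a kinase that drives actomyosin contraction, had the smallest p among the genes named here with the covariate, 0.000194, and differed by 0.41 ± 0.09. Its signal was 6.34 to 8.30 in DOXO mice and 6.45 to 8.48 in FA-DOXO mice, with means of 6.61 and 6.73 on the narrow arrays and 8.24 and 8.20 on the wide ones. Myo9a, an unconventional myosin, has 13 clusters of its own. All 13 were above 0 with the covariate, from 0.05 to 0.59, and 5 were called. Rasa1, which switches Ras off, was higher by 0.42 ± 0.11. Both clusters of the kinase Taok1 were called, at 0.42 ± 0.11 and 0.43 ± 0.13, and within the wide arrays they were at 0.19 and -0.12. Dmxl1, which takes part in assembling the proton pump of acidic vesicles, was higher by 0.49 ± 0.12.

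Cul3 and Cul5 are scaffolds of ubiquitin ligases and Usp9x removes ubiquitin. With the covariate they differed by 0.35 ± 0.11, 0.32 ± 0.08 and 0.45 ± 0.15. Without it Cul3 and Cul5 were below 0, at -0.19 ± 0.70 and -0.02 ± 0.44, and Usp9x had an SE of 0.60 around a difference of nearly 0. Within the wide arrays the 3 genes were at -0.69, -0.37 and -0.16, and within the narrow ones at 0.06, 0.15 and 0.08. Rb1cc1, which starts autophagosomes, was higher by 0.36 ± 0.09 with the covariate and at -0.09 within the wide arrays, and Atg4c, a protease that processes their Atg8 proteins, was higher by 0.24 ± 0.06. Atg4c was the clearer of the pair in the raw values, at 5.93 to 6.24 in DOXO mice and 6.17 to 6.39 in FA-DOXO mice, with 5 FA-DOXO mice above the DOXO range. Prkaa1, a catalytic subunit of the energy sensor AMPK, was at 0.22 ± 0.07 with and -0.14 ± 0.46 without the covariate, and at -0.48 within the wide arrays. The transcription factor Creb1 was higher by 0.23 ± 0.08, and the calls of Prkaa1 and Creb1 held in 5 and 3 of 12 fits with a mouse left out. Kdm6a, a histone demethylase, and Cdkn1b, the cell cycle inhibitor p27, were higher by 0.38 ± 0.10 and 0.40 ± 0.13, the latter in 1 of its 2 clusters, and Kdm6a was at -0.08 within the wide arrays. Vcam1 and Itgb1, an adhesion molecule of vessels and an integrin subunit, differed by 0.30 ± 0.10 and 0.33 ± 0.11 with the covariate. Itgb1 was at -0.21 ± 0.70 without it, at -0.62 within the wide and -0.01 within the narrow arrays, and its call held in 1 of 12 fits with a mouse left out. The genes of these 3 paragraphs beyond the largest differences were picked after their values were seen and stand for no tested group.

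Ppargc1a, the coactivator that governs mitochondrial biogenesis, has 2 clusters, and only 1 was called. That cluster ran from 6.16 to 8.74 in DOXO mice and from 6.14 to 9.03 in FA-DOXO mice, with a difference of 0.56 ± 0.19, while the brighter one gave 0.44 ± 0.19 with an unadjusted limma p of 0.0336. Without both wide DOXO arrays the called cluster gave 0.30. Further genes of mitochondria were chosen after their values were seen. Clpx, a chaperone of the matrix, Pnpt1, a nuclease of mitochondrial RNA, and Fdx1, an electron carrier for steroid and iron-sulphur enzymes, were at 0.33 ± 0.11, 0.40 ± 0.13 and 0.26 ± 0.08 with the covariate, calls that held in 4, 6 and 11 of 12 fits with a mouse left out. Clpx was at -0.07 ± 0.53 without it and -0.26 within the wide arrays.

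Genes called lower with the covariate differed by less, from -0.30 to -0.14 over the 45 clusters. Cyp11b1, the last enzyme of glucocorticoid synthesis in the adrenal cortex, ran from 5.57 to 6.32 in DOXO mice and from 5.36 to 6.22 in FA-DOXO mice, and its difference was -0.30 ± 0.08. It was below 0 on the wide and on the narrow arrays, at -0.18 and -0.16. Egr4, an immediate early zinc finger factor, differed by -0.29 ± 0.07, Apol10a by -0.28 ± 0.09, Cyp2d10, a liver cytochrome P450, by -0.27 ± 0.09, and Fgf17, a growth factor of the developing brain, by -0.26 ± 0.07. Tff2, a peptide of gastric mucus, and Hand1, a transcription factor of the developing left ventricle, differed by -0.25 ± 0.06 and -0.23 ± 0.07, though Tff2 was at 0.14 within the wide arrays. Hand1 was called with each of the 12 mice left out and also without both wide DOXO arrays. Some smaller ones were named after their values were seen. Glp1r, the receptor of the incretin GLP-1, was at -0.22 ± 0.07, Il11, a profibrotic cytokine, at -0.18 ± 0.06, and Fgf21, a stress hormone, at -0.16 ± 0.05. Cyp11b1, Glp1r and Il11 lay below the median of their own array in all 12 mice, so these values do not show that the ventricle expresses them. Egr4 and Hand1 lay below it in every FA-DOXO mouse, so the same limit applies to that group.

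**Figure D3:**
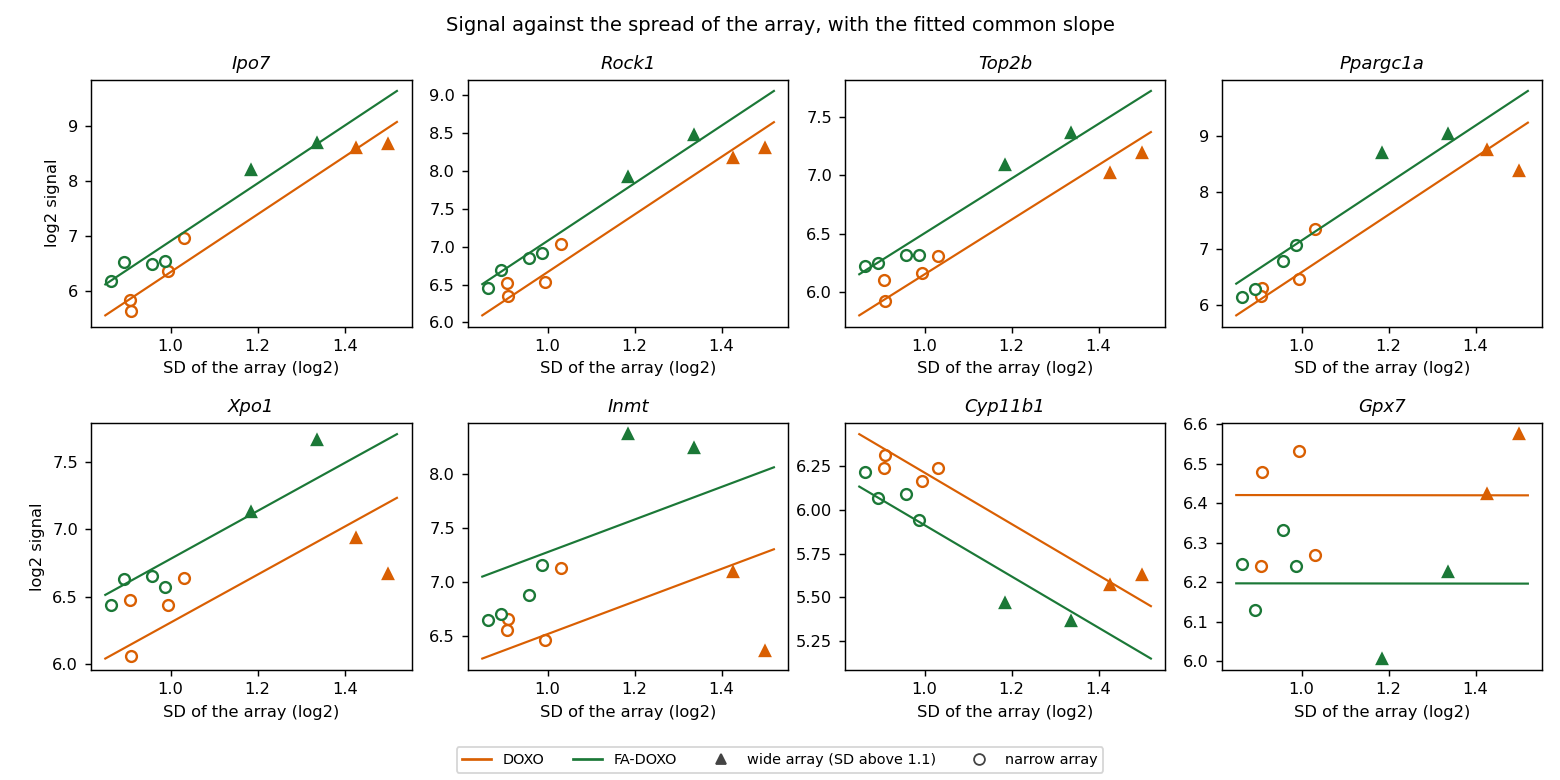
Log2 signal (vertical axis) against the SD of the array (horizontal axis) for 8 genes in the 6 DOXO and 6 FA-DOXO mice, with lines of the fitted common slope through each group's mean. Triangles are wide and circles narrow arrays. In the 6 genes called higher the FA-DOXO line lies above the DOXO line, by 0.56 in Ipo7 and 0.41 in Rock1, and in Cyp11b1 and Gpx7 it lies below; the 2 DOXO triangles of Xpo1 and Inmt lie under their own line.

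Genes higher with FA in that fit were long. The 176 genes had a median length of 38.2 kb from start to end, against 17.7 kb for all 19937 genes and 9.63 kb for the 44 genes called lower. Their signals followed the array SD, with a median slope of 1.47 log2 units per unit of SD. It was -0.44 for all genes and -1.09 for those called lower. The fit that picked these genes favours such slopes, since the mean array SD differed by -0.0904, FA-DOXO minus DOXO. A positive slope thus adds to the adjusted difference and a negative slope takes from it. The slopes therefore do not describe the genes apart from how they were picked. Of the genes called higher, 64.8% had a mean signal above the median gene, against 25% of those called lower. The part of array spread in the length difference was not tested.

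Lists of genes for pathways and cell types were then read in both fits, with 1 cluster per gene. Of 19937 genes, 11 were called without a covariate (0.0552%), and 176 higher (0.883%) and 44 lower (0.221%) with it. No list of 44 had a called member in the first fit, and 8 had 1 or more in the second. The median difference of a list was below 0 in 34 lists without a covariate and above 0 in 30 lists with it, and the sign turned in 30 lists. All genes had medians of 0.02 and 0.01. Directions of list medians are therefore given with both values.

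The list of DOXO targets and of genes that export or reduce the drug held 2 calls among 24 measured members, the targets Top2a and Top2b, which are DNA topoisomerases II. Top2b is the form of resting heart muscle and Top2a that of dividing cells. Top2b ran from 5.92 through 6.24 to 7.19 in DOXO mice and from 6.22 through 6.31 to 7.36 in FA-DOXO mice, and its difference was 0.14 ± 0.29 without and 0.35 ± 0.09 with the covariate. It was called with each of the 12 mice left out. Top2a ran from 5.79 through 6.41 to 6.74 in DOXO mice and from 6.44 through 6.74 to 6.88 in FA-DOXO mice, with 3 FA-DOXO mice above the DOXO range. Its difference was 0.34 ± 0.15 without and 0.25 ± 0.08 with the covariate, larger within the wide arrays, at 0.63, than within the narrow ones, at 0.20. A second Top2a cluster was not called, at 0.08 ± 0.13 with the covariate. Both calls were lost without both wide DOXO arrays, at 0.26 for Top2b and 0.21 for Top2a, and on the narrow arrays alone with the covariate. The list's median was -0.05 without and 0.06 with the covariate.

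The promoters of both genes are shown because they are the drug's own targets, as the 250 bases before the RefSeq start in GRCm38.p6, with CCAAT boxes on either strand (CCAAT or ATTGG) in capitals. Top2a lies on the minus strand at chr11:99024190-99024439 and Top2b on the plus strand at chr14:16364956-16365205.
Top2a promoter: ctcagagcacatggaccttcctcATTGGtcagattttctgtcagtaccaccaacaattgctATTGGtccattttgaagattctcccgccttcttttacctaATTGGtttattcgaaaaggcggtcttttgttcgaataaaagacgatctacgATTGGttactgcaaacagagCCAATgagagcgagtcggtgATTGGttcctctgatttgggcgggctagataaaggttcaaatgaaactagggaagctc
Top2b promoter: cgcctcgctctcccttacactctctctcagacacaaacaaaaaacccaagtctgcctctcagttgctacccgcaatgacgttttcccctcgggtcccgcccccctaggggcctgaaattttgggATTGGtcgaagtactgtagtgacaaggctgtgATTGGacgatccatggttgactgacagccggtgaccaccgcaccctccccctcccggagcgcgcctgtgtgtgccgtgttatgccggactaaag
The motif occurs 6 times before Top2a and 2 times before Top2b. Of all 32851 promoter windows, 33.8% held it at least once, 10.1% at least 2 times and 0.0578% at least 6 times. Since the table held a promoter for only 78.3% of all genes and 77.3% of those called higher, no share of the called genes is compared here.

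Of the 15 genes listed for the desmosome and intercalated disc, the junctions that join heart muscle cells end to end, 2 were called higher with the covariate. One of them, Adam4, was named by the study from these same arrays, as repressed by DOXO and restored with FA. Its call is therefore no independent support. Adam4, a member of the ADAM protease family that the study counts as desmosomal, ran from 5.82 through 6.20 to 6.58 in DOXO mice and from 6.40 through 6.63 to 6.84 in FA-DOXO mice. The difference was 0.39 ± 0.14 without a covariate, just outside the threshold at a limma p of 0.0102, and 0.31 ± 0.08 with it, called in 12 of 12 fits with a mouse left out. Pkp2, plakophilin 2 of the desmosome, overlapped fully in raw values and differed by 0.34 ± 0.11 with the covariate and -0.18 ± 0.68 without, with -0.43 within the wide arrays and a call in 4 of 12 fits with a mouse left out. The list's median was -0.21 without and 0.26 with the covariate. On the narrow arrays alone it was 0.01 without and 0.04 with the covariate. With the covariate 15 of 15 members, Adam4 included, were above 0.

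Fatty acid uptake and oxidation, the main fuel supply of the adult heart, had 29 measured members. With the covariate all 29 were above 0 with a median of 0.31 and none was called, whereas the median was -0.26 without it. On the narrow arrays alone the median was -0.24 without the covariate and 0.19 with it. In the latter fit 25 of 29 were above 0 and 1 was called higher. Leaving out both wide DOXO arrays gave a median of 0.06 with the covariate. The members nearest to a call with the covariate were Acot2, a mitochondrial thioesterase, at 0.47 ± 0.22, and Ucp3, an uncoupling protein, at 0.62 ± 0.29. Angptl4, an inhibitor of lipoprotein lipase, was at 0.48 ± 0.22 without it. Ucp3 rested on FA-DOXO replicate 5, at 8.73, where the next FA-DOXO mouse had 7.23.

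Genes of contraction and respiration had 0 calls in both fits, and their medians depended on the covariate. Of 25 sarcomere and Z disc genes, 0 were above 0 without a covariate, with a median of -0.44, and 18 were above 0 with it, with a median of 0.19. In 34 genes of mitochondrial complex I the median went from -0.34 to 0.03, and in 37 of complexes II to V from -0.38 to 0.06. When the square of the array SD was added, the last 2 medians were again below 0, at -0.10 and -0.12. Glycolysis and the citric acid cycle went from -0.35 to 0.26 over 25 genes. Single members had wide errors, such as Tnnc1, cardiac troponin C, at -0.83 ± 0.88 and -0.26 ± 0.49, Nebl of the Z disc at -0.23 ± 0.65 and 0.26 ± 0.13, Sdha of complex II at -0.35 ± 0.99 and 0.39 ± 0.29, and Pfkm of glycolysis at -0.13 ± 0.75 and 0.43 ± 0.22.

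**Figure D4:**
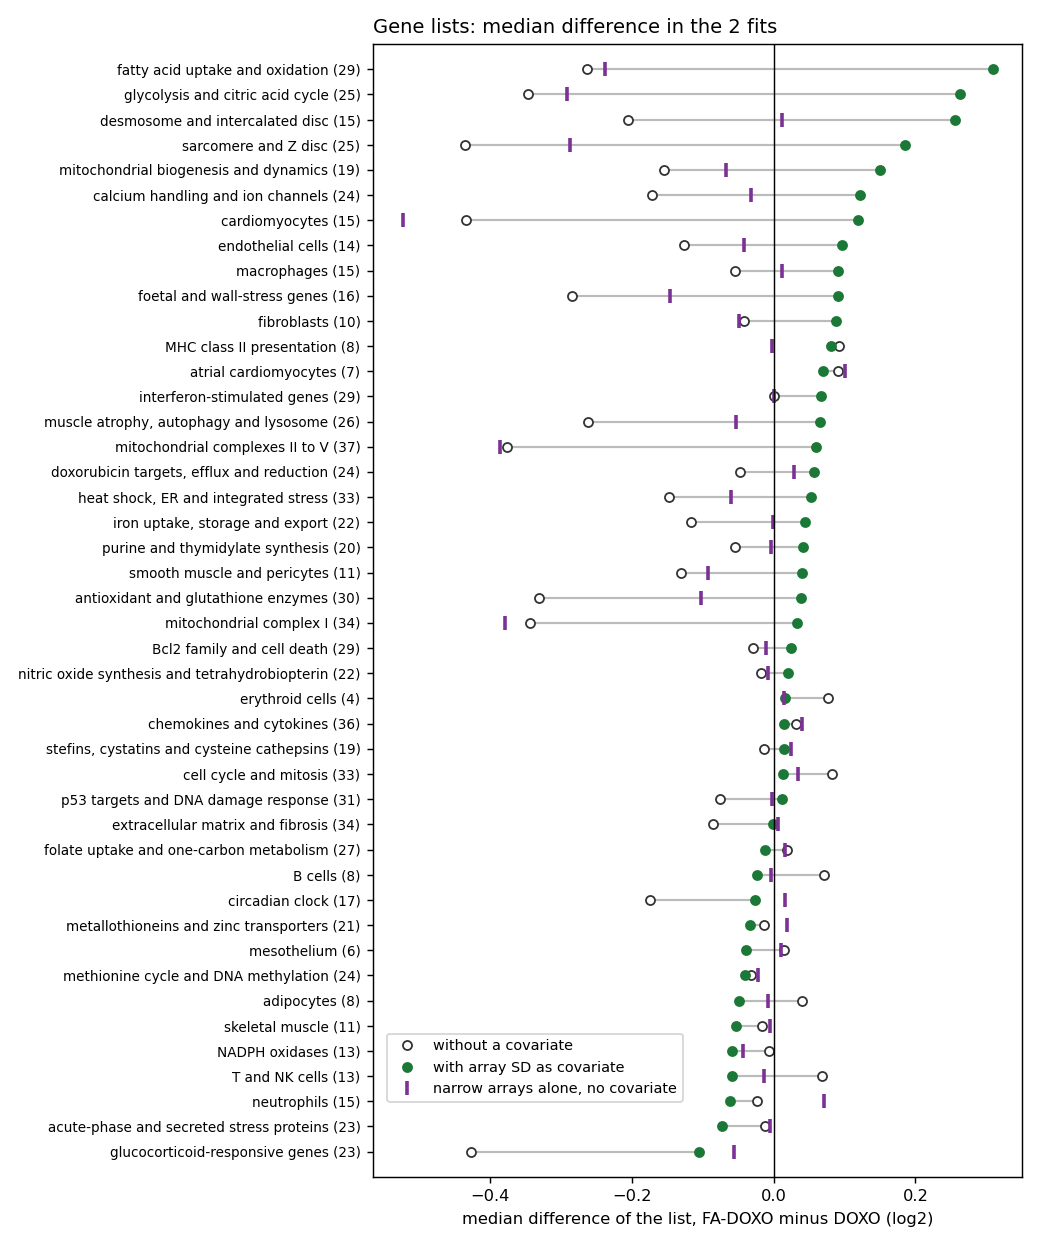
Median difference, FA-DOXO minus DOXO in log2 units (horizontal axis), of each of the 44 gene lists, with the number of measured genes in parentheses. Open circles are the fit without a covariate, filled circles the fit with the array SD as covariate and bars the narrow arrays alone without a covariate. The sarcomere list goes from -0.44 to 0.19 and the fatty acid list from -0.26 to 0.31.

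NO synthesis and tetrahydrobiopterin, the pathway that the study set out to follow, had 22 measured members and 0 calls in both fits, with medians of -0.02 and 0.02. Nos3, endothelial NO synthase, ran from 6.86 through 6.95 to 8.41 in DOXO mice and from 6.80 through 6.93 to 7.26 in FA-DOXO mice, and its difference was -0.22 ± 0.23 without and -0.11 ± 0.18 with the covariate. DOXO replicate 5 held the highest value, and the next DOXO mouse had 6.99. Nos1 and Nos2, the neuronal and inducible enzymes, differed by 0.02 ± 0.07 and 0.05 ± 0.09 with the covariate. Slc7a1, which imports the substrate arginine, was at -0.20 ± 0.20 without it, and Gucy1b1, a subunit of the NO receptor, at 0.19 ± 0.12 with it. Arrays report mRNA and not the coupling or phosphorylation of an enzyme.

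Folate uptake and one-carbon metabolism had 27 measured members, the methionine cycle and DNA methylation 24, and purine and thymidylate synthesis 20, with 0 calls in both fits. Their medians with the covariate were -0.01, -0.04 and 0.04. Ggh, which trims the glutamate tail of folates, was at 0.18 ± 0.09 with the covariate, Mtrr, which keeps methionine synthase active, at -0.08 ± 0.06, Uhrf1, which guides maintenance of DNA methylation, at -0.14 ± 0.07, and Rrm1, a subunit of ribonucleotide reductase, at 0.21 ± 0.09. Tyms, thymidylate synthase, was at 0.12 ± 0.10 without it. None of these passed the threshold.

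Among 30 antioxidant and glutathione enzymes, Gpx7, a peroxidase of the endoplasmic reticulum, was called lower with the covariate. It ran from 6.24 through 6.45 to 6.58 in DOXO mice and from 6.01 through 6.23 to 6.33 in FA-DOXO mice, and 4 FA-DOXO mice lay below the DOXO range. Its difference was -0.22 ± 0.09 without and -0.22 ± 0.08 with the covariate, and it stayed called in 3 of 12 fits with a mouse left out. Cat, catalase, was at -0.34 ± 0.96 and 0.39 ± 0.21. Nox4, a superoxide-producing oxidase, was at 0.17 ± 0.07 with the covariate and not called, with 5 FA-DOXO mice above the DOXO range.

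Iron, zinc, protein breakdown and acute-phase lists held 1 call each with the covariate. Ireb2, which controls iron uptake and storage, was at 0.24 ± 0.08 among 22 genes, Slc39a10, a zinc importer, at 0.25 ± 0.08 among 21, and Fbxo30, an atrophy ubiquitin ligase, at 0.30 ± 0.08 among 26. Ireb2 was at 0.01 ± 0.31 without the covariate and -0.22 within the wide arrays, and the calls of Ireb2 and Slc39a10 held in 3 and 5 of 12 fits with a mouse left out. Saa1, serum amyloid A1, was lower, at -0.26 ± 0.07 among 23 genes, and above 0 within the wide arrays. It ran from 4.81 to 5.47 in DOXO and from 4.82 to 5.13 in FA-DOXO mice, below the median of every array. Slc40a1, the iron exporter ferroportin, was not called at 0.34 ± 0.16, yet the groups did not overlap, at 6.27 to 7.00 in DOXO and 7.01 to 7.44 in FA-DOXO mice. Ddb2, a p53 target of DNA repair, was apart likewise, at 6.38 to 6.64 against 6.65 to 6.76, with a difference of 0.13 ± 0.06. Of 31 p53 and DNA damage genes and 29 genes of cell death, 0 were called in both fits, and Birc2, an inhibitor of apoptosis, was at 0.16 ± 0.06 with the covariate.

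The stress genes that the study followed were not called in either fit of these arrays. The study also measured some of them by quantitative RT-PCR. There it reported Mt2, Lcn2 and Serpina3n as raised by DOXO and lower with FA, and changes of Acta1, Nppa and Nppb as normalized with FA. Those PCR values are not part of the array data described here. Serpina3n, an acute-phase protease inhibitor, had the lowest, median and highest signals of 6.99, 8.65 and 12.38 in DOXO mice and 6.74, 7.98 and 10.38 in FA-DOXO mice. Its difference was -1.04 ± 0.76 without and -0.56 ± 0.46 with the covariate. Lcn2, lipocalin 2, ran from 6.60 to 11.73 and from 6.57 to 10.32, with differences of -0.79 ± 0.78 and -0.32 ± 0.50. In both genes the difference lay in the wide arrays, at -2.38 and -2.54, against -0.37 and 0.09 within the narrow ones. Mt1 and Mt2, metallothioneins that bind zinc, were at -0.60 ± 0.60 and -0.52 ± 0.67 without and at -0.17 ± 0.23 and -0.11 ± 0.41 with the covariate, and within the narrow arrays at -0.07 in both. These 4 genes were below 0 in both fits, and the raw groups overlapped in each. Without both wide DOXO arrays Lcn2 and Mt1 were above 0 with the covariate, at 0.41 and 0.07.

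Nppa and Nppb, the natriuretic peptides of the stretched heart, gave -0.22 ± 0.66 and -0.60 ± 0.51 without the covariate and 0.20 ± 0.38 and -0.26 ± 0.28 with it. Nppb ran from 9.06 to 11.78 in DOXO mice and from 8.38 to 11.14 in FA-DOXO mice, with 2 FA-DOXO mice below the DOXO range. Acta1, skeletal actin, was at -0.29 ± 0.57 and 0.10 ± 0.27. Stefins are cysteine protease inhibitors of white blood cells with near-identical copies. From these same arrays the study reported several of them as induced by DOXO and normalized with FA, though its discussion lists stefins as down-regulated. Csta1 was higher with FA, at 0.38 ± 0.15 and 0.33 ± 0.13, with 4 FA-DOXO mice above the DOXO range. Stfa2 was lower, at -0.44 ± 0.24 and -0.37 ± 0.22. Csta2, Csta3 and Stfa3 were at 0.16 ± 0.16, 0.01 ± 0.09 and -0.04 ± 0.10 with the covariate.

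**Figure D5:**
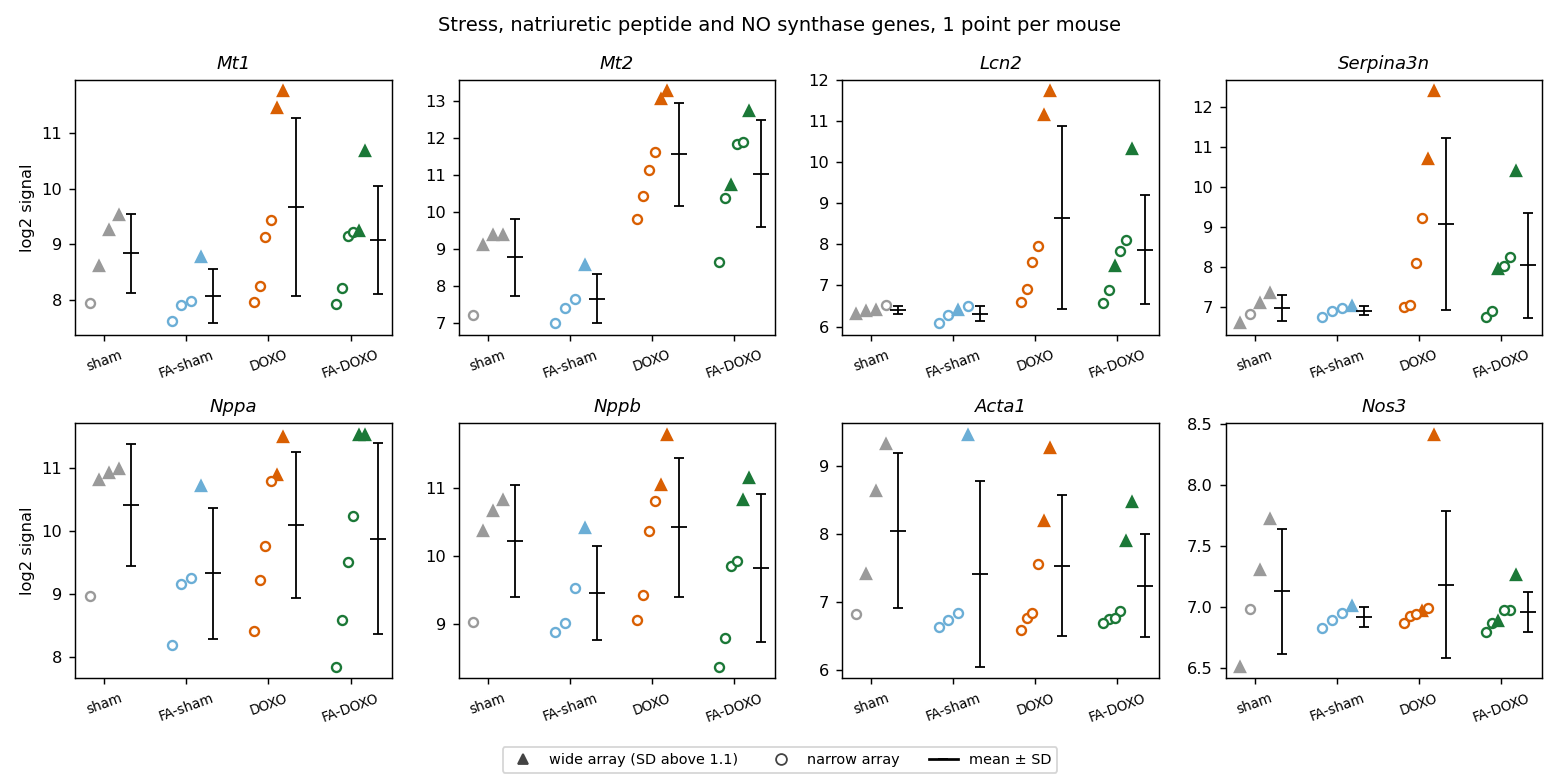
Log2 signals of Mt1, Mt2, Lcn2, Serpina3n, Nppa, Nppb, Acta1 and Nos3 in the 4 groups, 1 point per mouse, with mean ± SD in black. Triangles are wide and circles narrow arrays; Serpina3n reaches 12.38 in the DOXO and 10.38 in the FA-DOXO group, on wide arrays in both.

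The heart muscle markers Tnnt2, Actc1 and Myh6 lay above the array median on all arrays of the comparison. On narrow arrays the margin could be small, as for Myh6 on FA-DOXO replicate 2, at 6.90 against an array median of 6.63. Tnnt2, cardiac troponin T, ran from 9.93 to 13.91 in DOXO mice and from 9.27 to 13.53 in FA-DOXO mice, Actc1, cardiac actin, from 8.32 to 13.21 and from 8.03 to 13.07, and Myh6, alpha myosin, from 7.13 to 11.99 and from 6.90 to 10.84. The atrial genes Sln and Myl7 averaged 6.23 and 6.41, close to the array medians. Myl7 reached 6.93 on FA-DOXO replicate 4, about the lowest Myh6 signal, so these genes do not separate cleanly on every array. In the 15 cardiomyocyte markers the mean signal per mouse ran from 8.84 to 12.32 in DOXO and from 8.18 to 11.87 in FA-DOXO mice. The median difference was -0.43 without a covariate and 0.12 with it, with 0 calls. Within the narrow arrays it was -0.52 without and -0.02 with the covariate. In bulk tissue, fewer cells of a type and less of its RNA per cell cannot be told apart. Endothelial markers had medians of -0.13 and 0.10, fibroblast markers -0.04 and 0.09, and macrophage markers -0.05 and 0.09, with 0 calls in the 13 lists of cell types. Pecam1 and Cdh5 of endothelium were at 0.08 ± 0.15 and 0.41 ± 0.28 with the covariate, Col1a1 and Lum of fibroblasts at -0.12 ± 0.08 and 0.62 ± 0.28, and Mrc1 of macrophages at 0.24 ± 0.10. Neutrophil markers S100a8 and Ngp were at -0.09 ± 0.28 and -0.69 ± 0.31 without it. Ngp rested on the wide DOXO replicates 1 and 5, at 7.65 and 8.18, where the next DOXO mouse had 6.16. Of 15 neutrophil markers, 2 were above 0 with the covariate and 13 within the narrow arrays without it. Cd3e of T cells and Adipoq of fat, at 0.01 ± 0.07 and 0.01 ± 0.07 with the covariate, had mean signals of 6.71 and 5.99. The part of cell makeup in the calls was not tested.

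DOXO against sham shares its DOXO mice with FA-DOXO against DOXO, so those values are set side by side without a test across them. With the covariate, DOXO minus sham was 3.42 for Mt2, 2.97 for Lcn2 and 2.84 for Serpina3n, where FA-DOXO minus DOXO was -0.11, -0.32 and -0.56. Adam4 was at -0.46 and 0.31, Xpo1 at -0.41 and 0.47, Inmt at -0.54 and 0.76, Top2b at -0.21 and 0.35, and Trps1 at -0.08 and 0.36. Ipo7 was at -0.05 and 0.56 and Rock1 at -0.09 and 0.41. Among the genes called lower, Cyp2d10 was at 0.26 and -0.27 and Cyp11b1 at 0.16 and -0.30. A two-sided test (interaction) asked whether the difference with FA was another one, larger, smaller or opposite, in DOXO-treated than in sham-treated mice. Of 34760 clusters, 161 passed the unadjusted threshold without and 618 with the covariate. None passed a limma adjusted p of 0.05, with smallest values of 0.570 and 0.110. FA-sham minus sham with the covariate was 0.11 for Trps1, 0.04 for Defa24, -0.17 for Adam4 and 0.08 for Cyp11b1.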

How the data were processed

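The authors hybridised left ventricular RNA of 20 mice, 1 per array, to Affymetrix Mouse Gene 1.0 ST arrays and deposited log2 signals for 34760 transcript clusters, made with R 2.14.2 and Bioconductor per the labels. How they corrected background, normalized and summarised probes is not given in the sources used here. Arrays carry no read depth, and the number of mice limits the precision. Nothing in the labels ties mice to batches. Each cluster was fitted with limma 3.58.1 (R 4.3.3) over 4 groups, without and with each array's SD as covariate, and p-values were adjusted by Benjamini-Hochberg over all clusters. A call is an unadjusted p under 0.01. Exact permutation tests enumerated all splits of the arrays in Python with NumPy 2.4.6. Symbols came from the platform annotation, for a gene with several clusters the list counts used 1 cluster, and sequences came from RefSeq tables. Fits were tested on simulated data. Named genes were those the study names, the 12 largest differences up and down in each fit, all genes called in both, 2 per list with the smallest p and defining markers, while others are marked as picked after their values were seen. The members and lists were chosen with earlier results of these data known. Alternatives changed scaling, filters, moderation, weights, covariate, arrays and replicate block.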

Additional observations from a re-analysis of the deposited data

Results flagged for a closer look

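In 15 cases a single mouse lay far from the other 5 of its group, by Dixon's criterion. Since 256 groups of values were examined and chance gives about 1 such case in 20 groups, the number is not read as a result. All 15 came from 4 mice, each on a wide array. DOXO replicate 5, the array with the largest spread of the 12, held 10 of them. It was low for Trps1 (5.98, next 6.42), Vmn2r94 (5.53), H2ac4 (4.96), Csta1 (4.91), Csta2 (4.75) and Slc40a1 (6.27), and high for Nos3 (8.41), Slc7a1 (8.52), Saa3 (8.49) and Rrm1 (7.29). DOXO replicate 1 was high for S100a8 (8.61) and Zfp975 (6.54). FA-DOXO replicate 5 was high for Slc40a1 (7.44) and Ucp3 (8.73), and FA-DOXO replicate 6 low for Ccdc88a (6.41). The part of array spread in these values was not tested.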

How the results depend on the processing

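No cluster passed an adjusted p of 0.05 under any setting run. Against 55 calls without a covariate, quantile normalization gave 87, scaling to 1 SD 94, filters at the 25th percentile and the median of signal 26 and 12, clusters with 1 symbol 17, wide arrays alone 137, narrow arrays alone 230 and the wide or narrow array as a block 249. Array weights gave 609, but their fit did not converge and weighted sham replicate 3 at 86.04. Leaving out 1 mouse gave 27 to 90, with 36 without DOXO replicate 5, 90 without DOXO replicate 6, and 35, 27 and 83 without FA-DOXO replicates 1, 2 and 5. Against 386 calls with the covariate, the median filter gave 173, array weights 699, and leaving out 1 mouse 220 to 491, with 223 and 220 without FA-DOXO replicates 5 and 6. Leaving out both wide DOXO arrays, chosen after seeing the data, gave 199. The interaction count went from 161 to 618 with the covariate. The replicate block gave 69 and 550 calls without and with the covariate. Same-numbered mice did not deviate together throughout, with correlations from -0.831 to 0.839 over the 6 numbers, so the numbers do not pair the mice. Apart from the construction of the filters, the cause of these shifts was not tested. With 6 mice per group and an unstated normalization, small differences could not be resolved.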
